A study of Mus musculus with 6 samples.

Results

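The enzymes that make purine and pyrimidine nucleotides were examined in RNA of splenic natural killer (NK) cells. The set holds 33 genes, taken by symbol from the 50686 genes of the deposited count table, and each symbol was found once. NK cells are innate lymphocytes that kill transformed and infected cells. The Eumyc group came from C57BL/6J mice given Eumyc lymphoma by the intravenous route, with spleens collected at day 14. The WT group came from healthy C57BL/6J mice of wild type genotype, and each group had 3 libraries. In both groups B cells were removed with the 1D3 antibody and beads, NK cells were enriched with CD49b beads, and NK1.1+ TCRb- cells were sorted. Every Eumyc library also took cells from the fraction that the CD49b beads had not held, so this step and the lymphoma cannot be told apart in any difference below. The labels do not say that the samples of a group were separate animals, so the p-values cover the spread of these samples alone, and that spread may be technical.

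Nucleotides are built from phosphoribosyl pyrophosphate (PRPP), which carries the ribose. The de novo purine pathway assembles the purine ring on it and ends in IMP, from which AMP and GMP are made, and the de novo pyrimidine pathway ends in UMP and CTP. Ribonucleotide reductase turns ribonucleotides into deoxyribonucleotides (dNTPs) for DNA synthesis, and salvage enzymes rebuild nucleotides from free bases and nucleosides. Resting lymphocytes make little use of the de novo routes, and dividing lymphocytes depend on them. The 33 genes were ordered as PRPP synthesis (2), de novo purine (10), de novo pyrimidine (5), nucleotide kinases (3), dNTP supply and control (8) and salvage (5).

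Promoter sequence was available from RefSeq (GRCm38.p6) for 30 of the 33 genes, in 38 windows from 250 bases before to 50 bases after a gene's start. The 250 bases before the RefSeq start are printed for Rrm2, Tyms and Rrm1, the 3 dNTP genes with the largest differences between the groups. They are also printed for Gart, which differed most among the purine genes, and for Atic, a purine gene whose window holds 2 of the searched motifs. By the exons of GENCODE M21, 13 of the printed bases of Rrm2 and 6 of those of Atic lie inside the gene's own exon. Capitals mark the letters CCAAT or CACGTG, or their reverse complement, and all else is in lower case, 5′ to 3′ on the strand of the gene. The windows are chr7:102441445-102441694 on the plus strand for Rrm1, chr12:24708004-24708253 on the plus strand for Rrm2, chr5:30073626-30073875 on the minus strand for Tyms, chr16:91646973-91647222 on the minus strand for Gart and chr1:71556906-71557155 on the plus strand for Atic.
Rrm1: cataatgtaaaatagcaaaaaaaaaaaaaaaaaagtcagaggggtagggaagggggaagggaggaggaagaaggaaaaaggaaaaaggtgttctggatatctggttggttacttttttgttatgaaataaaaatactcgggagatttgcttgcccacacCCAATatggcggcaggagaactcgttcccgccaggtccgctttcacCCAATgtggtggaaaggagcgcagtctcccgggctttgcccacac
Rrm2: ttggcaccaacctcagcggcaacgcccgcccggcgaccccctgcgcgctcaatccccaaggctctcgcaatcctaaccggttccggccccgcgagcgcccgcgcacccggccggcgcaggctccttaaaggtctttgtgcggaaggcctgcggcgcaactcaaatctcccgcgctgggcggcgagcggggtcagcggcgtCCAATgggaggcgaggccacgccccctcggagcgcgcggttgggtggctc
Tyms: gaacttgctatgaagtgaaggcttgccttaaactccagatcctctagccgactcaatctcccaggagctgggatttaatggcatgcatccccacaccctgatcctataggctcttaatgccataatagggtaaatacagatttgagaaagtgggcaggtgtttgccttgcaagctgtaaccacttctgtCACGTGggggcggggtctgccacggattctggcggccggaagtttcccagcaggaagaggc
Gart: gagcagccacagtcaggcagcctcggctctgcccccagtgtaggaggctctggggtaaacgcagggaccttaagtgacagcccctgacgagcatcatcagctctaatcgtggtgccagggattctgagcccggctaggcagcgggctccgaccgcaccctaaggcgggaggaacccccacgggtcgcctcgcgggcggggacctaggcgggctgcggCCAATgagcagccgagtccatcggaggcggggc
Atic: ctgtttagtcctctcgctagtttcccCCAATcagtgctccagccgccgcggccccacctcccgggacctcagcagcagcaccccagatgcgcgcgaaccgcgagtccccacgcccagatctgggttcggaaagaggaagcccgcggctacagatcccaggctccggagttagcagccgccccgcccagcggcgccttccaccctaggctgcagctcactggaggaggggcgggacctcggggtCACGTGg

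CCAAT is the letter core of the CCAAT box, and CACGTG is the E-box that the factor MYC with its partner MAX is known to bind. Rrm1 held CCAAT 91 and 45 bases before its start and Rrm2 held it 50 bases before. Tyms held CACGTG 61 bases before its start, Gart held CCAAT 33 bases before, and Atic held CCAAT 224 and CACGTG 7 bases before. These distances are from the RefSeq start, and the CACGTG of Atic reaches into its exon as annotated in GENCODE M21. Searched on both strands of the full windows, CCAAT occurred in 28.9% of the 38 member windows (10 genes) and in 37.4% of all 32851 windows. CACGTG occurred in 18.4% of the member windows and in 7.2% of all windows, and the genes that held it were Atic, Dtymk, Impdh2, Nme1, Paics and Tyms. The E2F letters TTTCCCGC, TTTCGCGC, TTTGCCGC and TTTGGCGC occurred in 5.3% of the member windows, those of Ppat and Prps2, and in 2.3% of all windows. The 3 motifs share no letters by overlap in the printed windows. None of the 5 salvage genes held any of them in these windows.

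Most of the genes were higher in the Eumyc libraries. Of the 33 genes, 32 passed the filter on low counts and 1, Nme2, did not. In edgeR's quasi-likelihood test with an adjusted p under 0.05, 26 were higher, 2 were lower (Ctps2 and Tk2) and 4 did not pass (Prps2, Dhodh, Rrm2b and Samhd1). Over all 15458 genes tested, 25.7% were called higher and 23.1% lower. The 3 Eumyc libraries lay above the 3 WT libraries for the same 26 genes and below them for the same 2, where 31.3% and 28.9% of all tested genes separated in those directions. The median log2 fold change of the 32 genes was 0.52, with a range from -0.44 to 3.15, and that of all tested genes was -0.00. Tested against a 1.5-fold change, 7 genes were higher (Rrm1, Rrm2, Tyms, Dut, Tk1, Dck and Ctps) and 0 were lower, where 8.15% of all tested genes were called higher.

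The steps differed in size. The 10 de novo purine genes were all higher, with a median log2 fold change of 0.50 and a range from 0.17 to 0.83, and 0 of them passed the test against 1.5-fold. Of the 5 de novo pyrimidine genes 3 were higher, 1 was lower and 1 did not pass, with a median of 0.68. Of the 8 dNTP genes 6 were higher and 2 did not pass, with a median of 1.39, and 4 passed the test against 1.5-fold. Of the 5 salvage genes 4 were higher and 1 was lower, with a median of 0.70. Both tested kinases were higher, with a median of 0.60, and 1 of the 2 PRPP synthetases was higher, with a median of 0.23. These medians describe the steps, and the difference between steps was not tested.

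**Figure D1:**
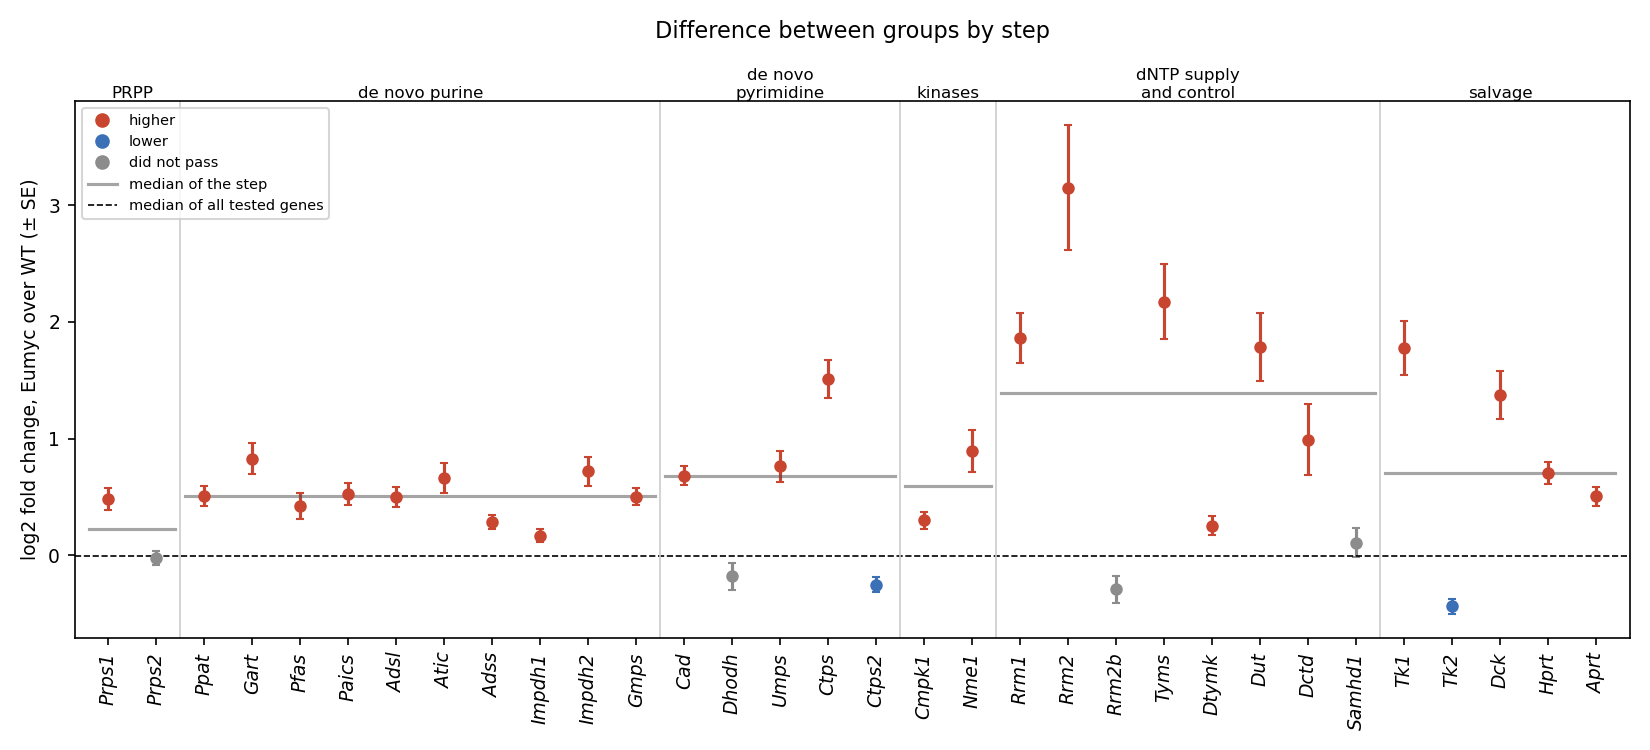
Log2 fold change of each of the 32 tested genes, Eumyc over WT (points, with the standard error as bars), ordered by step, with the median of each step as a grey line and the median of all tested genes as a dashed line. The dNTP genes spread most widely, from -0.29 for Rrm2b to 3.15 for Rrm2, and the 10 purine genes lie between 0.17 and 0.83.

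The libraries held 16407611 to 36534191 gene counts in WT and 44456157 to 66615602 in Eumyc. The NK cell markers summed to 12746 to 13219 CPM (counts relative to the library total) in WT and 10449 to 11469 CPM in Eumyc, with all 10 markers detected and 7 of 10 lower. A list of 20 S phase genes, such as the Mcm helicase subunits and Pcna, summed to 797, 780 and 1300 CPM in WT 1, 2 and 3 and to 2168, 2211 and 2877 CPM in Eumyc 1, 2 and 3, and all 20 were higher. WT 3 was the shallowest library and stood above the mean of WT 1 and WT 2 in all 20 S phase genes. The summed markers of other cells were also higher in Eumyc, though not every marker was called. Beside the counts of called markers, 25.7% of all tested genes were called higher and 23.1% lower. The 12 B cell markers summed to 16.6 to 20.3 CPM in WT and 51.1 to 57.3 CPM in Eumyc (8 of 9 tested higher, Rag1 at 0 in every WT library). T cell markers summed to 54.0 to 63.5 and 133 to 169 CPM (3 of 8 higher), and monocyte and macrophage markers to 950 to 1081 and 1480 to 2146 CPM (7 of 8 higher). Neutrophil markers summed to 0.164 to 2.56 and 28.6 to 37.4 CPM (6 of 6 higher, Elane at 0 in WT), and erythroid markers to 14.3 to 32.98 and 58.3 to 68.8 CPM (6 of 7 tested higher). Plasma cell markers summed to 223 to 235 and 248 to 279 CPM (3 of 4 tested higher and 1 lower), and dendritic cell markers to 732 to 824 and 1174 to 1255 CPM (4 of 6 higher, Siglech at 0 in WT). The part of these cells in the results below was not tested. In such bulk samples fewer cells of a type and less RNA per cell cannot be told apart.

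WT 3 and Eumyc 3 also stood above the other libraries of their groups for most nucleotide genes. On the log2 scale, WT 3 exceeded the mean of WT 1 and WT 2 in 26 of the 32 genes, by a median of 0.25. Eumyc 3 exceeded the mean of Eumyc 1 and Eumyc 2 in 28 of 32, by a median of 0.18. Over all tested genes these medians were 0.004 for WT 3 and -0.005 for Eumyc 3. The median excess of WT 3 was 0.90 for the dNTP genes, against 0.85 for the S phase list. It was 0.32 for the kinases, 0.29 for salvage, 0.27 for de novo pyrimidine and 0.22 for de novo purine. For PRPP synthesis it was -0.08. Without WT 3, 25 of the genes were higher and 3 were lower, since Impdh1 no longer passed and Rrm2b was then lower. Over all 16147 genes tested without WT 3, 4284 were higher and 3623 lower. The main test gave 3973 and 3576 of 15458.

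**Figure D2:**
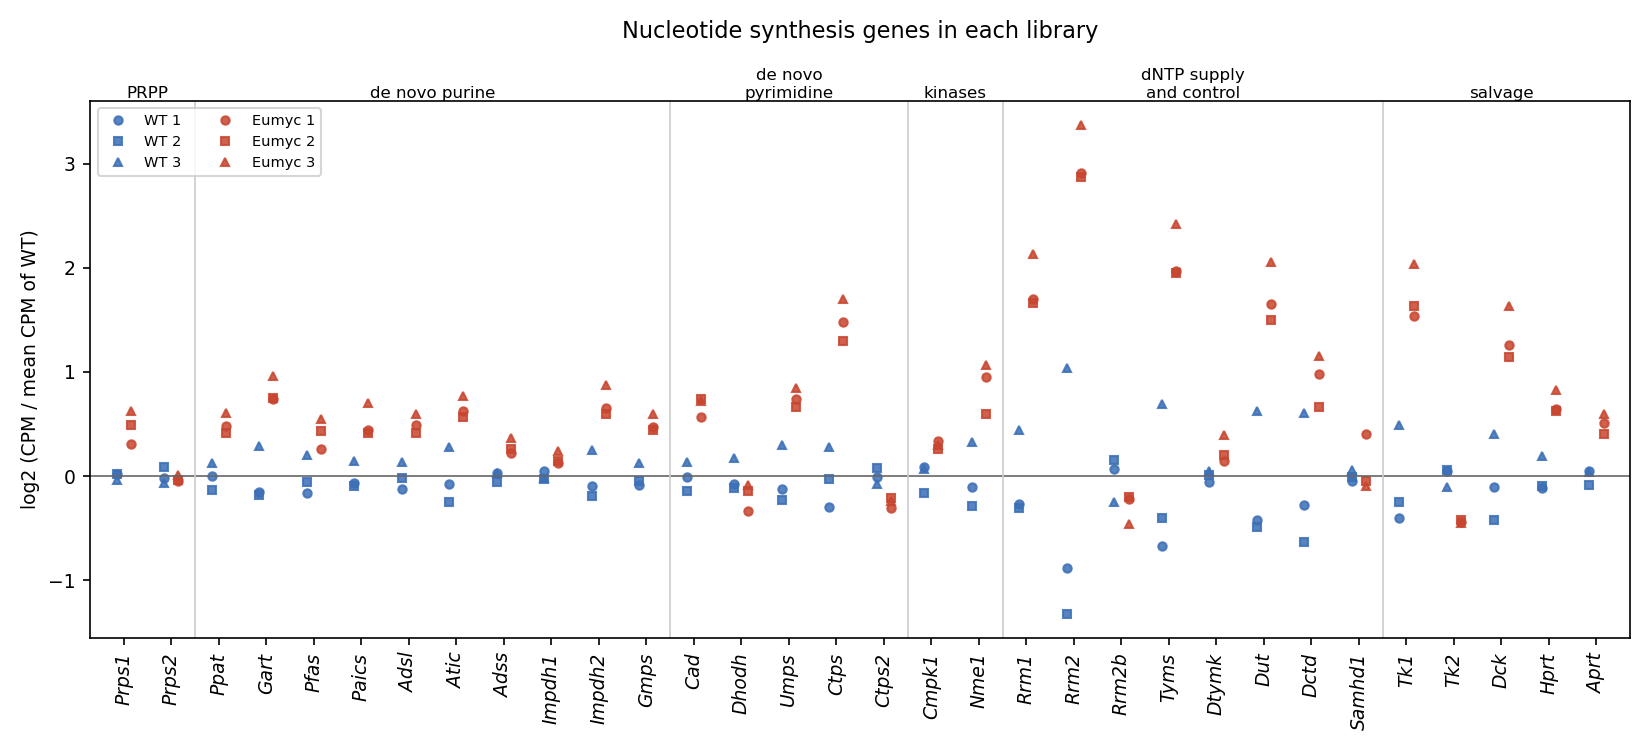
CPM of each of the 32 tested genes in each library, as log2 of the ratio to the gene's mean CPM in WT, with WT in blue, Eumyc in red and the library number as the symbol. WT 3 (blue triangles) lies above the other WT libraries in most dNTP genes, most widely for Rrm2 at 43.1 CPM against 11.4 and 8.39 CPM, and the red symbols lie above the blue ones for 26 genes.

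Values in CPM below are scaled by TMM (trimmed mean of M values), are given in the order of libraries 1, 2 and 3, and carry the SD over 3 libraries where a mean is printed. Log2 fold changes are Eumyc over WT with their standard error (SE).

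PRPP synthesis has a pair of related enzymes here, Prps1 and Prps2, both of which make PRPP from ribose phosphate. Prps1 (chromosome X, 140456613 to 140476140) held 26.8, 26.7 and 25.7 CPM in WT against 32.7, 37.0 and 40.7 CPM in Eumyc, so the groups did not overlap. Its log2 fold change was 0.48 (SE 0.09, edgeR adjusted p = 0.00377). Prps2 held 78.2, 84.3 and 75.7 CPM in WT against 76.9, 77.2 and 79.7 CPM in Eumyc, where the groups overlapped. This gave a log2 fold change of -0.03 (SE 0.06, edgeR adjusted p = 0.73). The ratio of Prps1 to Prps2 counts within a library was 0.342, 0.317 and 0.340 in WT and 0.425, 0.479 and 0.510 in Eumyc, a 1.41-fold higher ratio.

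All 10 purine genes rose, by less than the largest changes among the dNTP genes. Ppat makes the first committed step, the transfer of an amino group to PRPP, and went from 47.9 ± 4.18 to 67.8 ± 4.74 CPM. Its log2 fold change was 0.50 (SE 0.09, edgeR adjusted p = 0.00191). Gart, a single protein that carries 3 activities of the pathway, showed the largest difference of the step. It held 36.8, 35.9 and 49.96 CPM in WT against 68.3, 68.6 and 79.6 CPM in Eumyc. The difference was a log2 fold change of 0.83 (SE 0.13, edgeR adjusted p = 0.00141). WT 3 was the highest WT library for Gart and still lay below every Eumyc library.

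Pfas, which uses glutamine to convert FGAR to FGAM, went from 35.5 ± 4.68 to 47.5 ± 4.60 CPM, and Paics, a carboxylase and synthetase in one protein, from 96.9 ± 8.98 to 139 ± 15.6 CPM. Adsl, a lyase that acts in both IMP and AMP synthesis, had a log2 fold change of 0.50 (SE 0.09, edgeR adjusted p = 0.00209). Atic, which closes the ring to give IMP, stood at 0.66 (SE 0.13, edgeR adjusted p = 0.00363). Paics stood at 0.53 (edgeR adjusted p = 0.00255) and Pfas at 0.42 (edgeR adjusted p = 0.014). The Pfas call was lost without WT 1 (edgeR adjusted p = 0.0573) or without WT 2 (edgeR adjusted p = 0.0542). Ppat and Paics overlap at their starts on chromosome 5, with 272 bp of shared exon on opposite strands (6.2% of Ppat exons and 8.7% of Paics exons). The strand setting of the counting is not given, so reads in that stretch cannot be assigned to one of them. Gart likewise shares 1014 bp, 19.7% of its exons, with the antisense gene Gm15964, which held 11 to 78 counts per library.

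From IMP, Adss leads to AMP, and Impdh1 or Impdh2 followed by Gmps leads to GMP. Gmps went up by 0.50 on the log2 scale (SE 0.08, edgeR adjusted p = 0.00116) and Adss by 0.29 (SE 0.06, edgeR adjusted p = 0.00465). Impdh2, the IMP dehydrogenase known to be induced in dividing lymphocytes, held 43.8, 41.1 and 55.8 CPM in WT against 73.8, 70.9 and 86.2 CPM in Eumyc. Its log2 fold change was 0.72 (SE 0.12, edgeR adjusted p = 0.00207), the second largest of the purine genes. Impdh1, the other form, held 113, 107 and 108 CPM in WT against 119, 120.3 and 129 CPM in Eumyc. The groups did not overlap for Impdh1, but its log2 fold change was 0.17 (SE 0.06, edgeR adjusted p = 0.034), the smallest of the step. That call was lost without WT 1, WT 2, WT 3, Eumyc 2 or Eumyc 3, with edgeR adjusted p up to 0.103. Over 16 alternative settings of the test, Impdh1 passed in only 7. The ratio of Impdh2 to Impdh1 counts was 0.389, 0.385 and 0.518 in WT and 0.622, 0.589 and 0.670 in Eumyc, a 1.47-fold higher ratio.

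In the pyrimidine pathway the genes did not move together. Cad, one protein with the first 3 activities, held 105, 95.1 and 115 CPM in WT against 156, 175 and 174 CPM in Eumyc, a log2 fold change of 0.68 (SE 0.08, edgeR adjusted p = 0.000457). Umps, which makes UMP in the last 2 reactions, held 20.4, 19.0 and 27.3 CPM in WT against 37.2, 35.2 and 40.1 CPM in Eumyc, a log2 fold change of 0.76 (SE 0.14, edgeR adjusted p = 0.0024). Dhodh, the mitochondrial dehydrogenase between them, did not pass the test. It held 19.3, 18.7 and 22.9 CPM in WT against 16.0, 18.4 and 19.1 CPM in Eumyc, with overlapping groups and a log2 fold change of -0.18 (SE 0.12, edgeR adjusted p = 0.229).

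The CTP synthases, which convert UTP to CTP, moved in opposite directions. Ctps (chromosome 4, 120539868 to 120570276) held 9.13, 10.98 and 13.6 CPM in WT against 31.3, 27.6 and 36.4 CPM in Eumyc. The log2 fold change came to 1.51 (SE 0.16, edgeR adjusted p = 0.000321), the largest of the pyrimidine genes. Ctps2 held 77.2, 82.3 and 73.9 CPM in WT against 62.8, 67.2 and 65.8 CPM in Eumyc. Every Eumyc library lay below every WT library for Ctps2, with a log2 fold change of -0.25 (SE 0.06, edgeR adjusted p = 0.0112). The call for Ctps2 was lost without WT 2 (edgeR adjusted p = 0.0511) or without Eumyc 1 (edgeR adjusted p = 0.0536). Ctps counts were 0.118, 0.133 and 0.184 of Ctps2 counts in WT and 0.498, 0.411 and 0.554 in Eumyc, a 3.39-fold higher ratio.

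The kinases phosphorylate the products of both pathways. Cmpk1, which acts on UMP and CMP, held 142, 119 and 140.4 CPM in WT against 169, 160.1 and 164 CPM in Eumyc, a log2 fold change of 0.30 (SE 0.07, edgeR adjusted p = 0.0106). Nme1, a nucleoside diphosphate kinase, held 12.2, 10.8 and 16.5 CPM in WT against 25.4, 19.9 and 27.6 CPM in Eumyc, a log2 fold change of 0.90 (SE 0.18, edgeR adjusted p = 0.00413). Its neighbour and close relative Nme2 held 4, 12 and 2 counts in WT and 14, 12 and 15 counts in Eumyc and was not tested. The annotated read-through gene Gm20390 covers 48.9% of the Nme2 exons and 12.5% of the Nme1 exons on the same strand and was listed with 0 counts in every library. Reads shared by these overlapping genes could have been left uncounted, so the low Nme2 counts and the Nme1 level are uncertain.

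Ribonucleotide reductase showed the widest difference. It is built from the large subunit Rrm1 and a small subunit, Rrm2 in S phase or Rrm2b, a p53-induced form used outside S phase. Rrm2 (chromosome 12, 24708241 to 24714146) held 11.4, 8.39 and 43.1 CPM in WT against 157, 153 and 217 CPM in Eumyc. WT 3 held several times as much as the other WT libraries, and every Eumyc library lay above it. The mean went from 20.96 ± 19.3 to 176 ± 35.5 CPM, a log2 fold change of 3.15 (SE 0.54, edgeR adjusted p = 0.00199). Without WT 3 it was 4.18 (edgeR adjusted p = 2.97e-05), and Rrm2 was the only gene of the set whose fold change moved by more than 1.5 times when a library was left out.

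Rrm1 (chromosome 7, 102441695 to 102469771) held 52.2, 50.7 and 85.7 CPM in WT against 205, 199 and 277 CPM in Eumyc. Its log2 fold change was 1.86 (SE 0.21, edgeR adjusted p = 0.000396), with no overlap between groups. Rrm2b went the other way without passing the test. It held 61.9, 65.3 and 49.4 CPM in WT against 50.6, 51.2 and 42.7 CPM in Eumyc, a log2 fold change of -0.29 (SE 0.12, edgeR adjusted p = 0.0659). WT 3 was the lowest WT library for Rrm2b and lay below Eumyc 1 and Eumyc 2. Without WT 3 the test was passed at -0.39 (edgeR adjusted p = 0.00845), and the authors' deposited table gives -0.29 with an adjusted p of 0.0315.

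The subunits were also compared with each other within each library. Rrm2 counts were 0.184, 0.128 and 0.873 of Rrm2b counts in WT and 3.11, 2.99 and 5.08 of them in Eumyc, a 13.2-fold higher ratio. On the log2 scale that difference was 3.72, and without WT 3 it was 4.56. The ratio of Rrm2 to Rrm1 counts was 0.218, 0.165 and 0.503 in WT and 0.768, 0.768 and 0.783 in Eumyc, a 2.94-fold higher ratio. The Eumyc libraries were much closer to each other in that ratio (SD 0.02 on the log2 scale) than the WT libraries (SD 0.84). Per kilobase of exon, Rrm2 exceeded Rrm1 and Rrm2b in all 3 Eumyc libraries, with either the union of annotated exons or the median coding transcript as the length. In WT this held in 1 of 3 libraries with the first length and in 0 of 3 with the second.

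Genes of thymidylate synthesis were also higher. Tyms, which makes dTMP from dUMP, held 5.45, 6.55 and 14.0 CPM in WT against 33.9, 33.4 and 46.2 CPM in Eumyc (chromosome 5, 30058202 to 30073617). This gave a log2 fold change of 2.17 (SE 0.32, edgeR adjusted p = 0.00103). Dut, which removes dUTP and yields dUMP, went from 26.5 ± 12.4 to 89.6 ± 18.6 CPM, a log2 fold change of 1.78 (SE 0.29, edgeR adjusted p = 0.00158). Dctd, a deaminase that yields dUMP from dCMP, was at a low level, from 3.14 ± 1.46 to 6.05 ± 1.01 CPM. Its log2 fold change was 0.99 (SE 0.30, edgeR adjusted p = 0.0261), and the call was lost without WT 1, WT 2, Eumyc 1 or Eumyc 3, with edgeR adjusted p up to 0.0982. Dtymk, the kinase that takes dTMP to dTDP, differed less, from 48.7 ± 1.73 to 58.0 ± 5.40 CPM, a log2 fold change of 0.25 (SE 0.08, edgeR adjusted p = 0.0303). Its call was lost without WT 1, WT 2 or Eumyc 3, with edgeR adjusted p up to 0.0981.

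Samhd1 degrades dNTPs and is known to keep their pools small in cells that do not divide. It held 391, 401 and 420.4 CPM in WT against 536, 389.8 and 378 CPM in Eumyc. Eumyc 1 was high and the other Eumyc libraries lay below every WT library, so the groups overlapped. The log2 fold change was 0.11 (SE 0.13, edgeR adjusted p = 0.511), and without Eumyc 1 it was -0.06 (edgeR adjusted p = 0.504). The monocyte and macrophage markers were also highest in Eumyc 1, at 2146 CPM against 1480 and 1521 CPM in Eumyc 2 and 3, and their part in the Samhd1 level was not tested.

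Of the salvage enzymes, the thymidine kinases moved in opposite directions. Tk1, the cytosolic form known to accumulate in S phase (chromosome 11, 117815526 to 117826092), held 13.9, 15.5 and 25.8 CPM in WT against 53.2, 57.2 and 75.4 CPM in Eumyc. The difference was a log2 fold change of 1.77 (SE 0.23, edgeR adjusted p = 0.000622). Tk2, the mitochondrial form, held 90.5, 91.3 and 81.4 CPM in WT against 64.7, 65.4 and 64.3 CPM in Eumyc. The Eumyc libraries were close together and below WT, with a log2 fold change of -0.44 (SE 0.06, edgeR adjusted p = 0.00093). Tk1 counts were 0.154, 0.170 and 0.317 of Tk2 counts in WT and 0.823, 0.876 and 1.17 of them in Eumyc, a 4.68-fold higher ratio. Which of the pair was more abundant per kilobase in Eumyc depended on the length used, with a mean ratio of 0.658 from the union of exons and 1.30 from the coding transcripts.

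Dck, which phosphorylates deoxycytidine and other deoxynucleosides, held 30.02, 24.1 and 42.8 CPM in WT against 77.2, 71.4 and 100.2 CPM in Eumyc. Its log2 fold change was 1.37 (SE 0.21, edgeR adjusted p = 0.00112). The purine base salvage enzymes differed less. Hprt, which rebuilds IMP and GMP, went from 86.2 ± 10.5 to 140.1 ± 10.8 CPM, a log2 fold change of 0.70 (SE 0.09, edgeR adjusted p = 0.000681). Aprt, which rebuilds AMP, went from 26.3 ± 1.31 to 37.2 ± 2.38 CPM, a log2 fold change of 0.51 (SE 0.08, edgeR adjusted p = 0.00164). Both lay within the range of the purine pathway genes.

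The ratios of related genes do not depend on the scaling of libraries, and 7 pairs were compared. In 6 of them, Rrm2/Rrm2b, Rrm2/Rrm1, Tk1/Tk2, Ctps/Ctps2, Impdh2/Impdh1 and Prps1/Prps2, the ratio was higher in all 3 Eumyc libraries than in all 3 WT libraries. In a two-sided exact permutation test each of the 6 gave p = 0.1, the smallest p that 3 against 3 allows (0.117 adjusted over the 7 pairs), so this design cannot pass 0.05. The Nme1/Nme2 ratio overlapped between the groups (exact permutation p = 0.7).

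**Figure D3:**
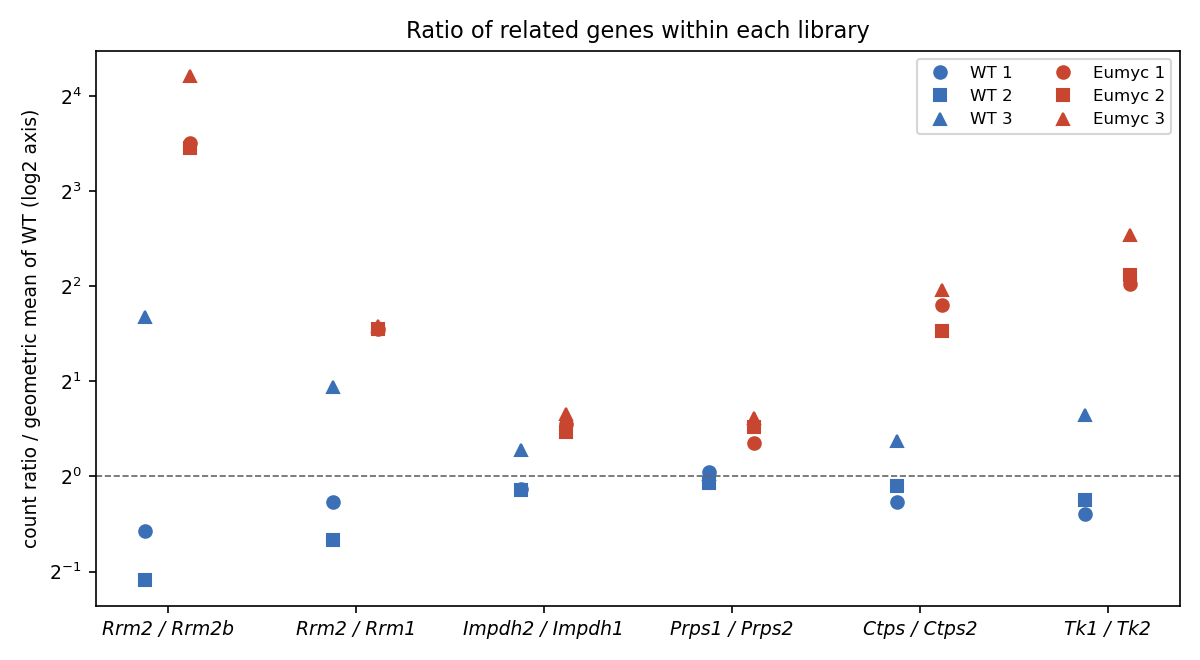
Ratio of the counts of related genes within each library, divided by the geometric mean of that ratio in WT, on a log2 axis, with WT in blue, Eumyc in red and the library number as the symbol. In each of the 6 pairs the Eumyc libraries lie above the WT libraries, and for Rrm2/Rrm1 the 3 Eumyc points, at count ratios of 0.768, 0.768 and 0.783, nearly coincide.

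In several of these genes the highest library of each group was the one with the highest S phase sum in that group. Rrm2, Rrm1, Tyms, Dut and Dck were each highest in Eumyc 3, and within WT each was highest in WT 3. The same held for Gart, Paics, Impdh2, Umps, Ctps and Hprt, among others, so this order was not particular to the dNTP genes. The excess of WT 3 over the mean of WT 1 and WT 2 was 2.14 on the log2 scale for Rrm2, 1.22 for Tyms, 1.08 for Dut, 0.81 for Tk1, 0.74 for Rrm1 and 0.67 for Dck. For Tk2 and Rrm2b these were instead the lowest libraries of their groups. Mki67, a marker of dividing cells, held 31.8, 25.6 and 136 CPM in WT against 583, 633 and 803 CPM in Eumyc. Pcna, the sliding clamp of DNA polymerase, had a log2 fold change of 1.07 (SE 0.16, edgeR adjusted p = 0.00101). The share of S phase cells was not measured, and its part in the differences was not tested.

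**Figure D4:**
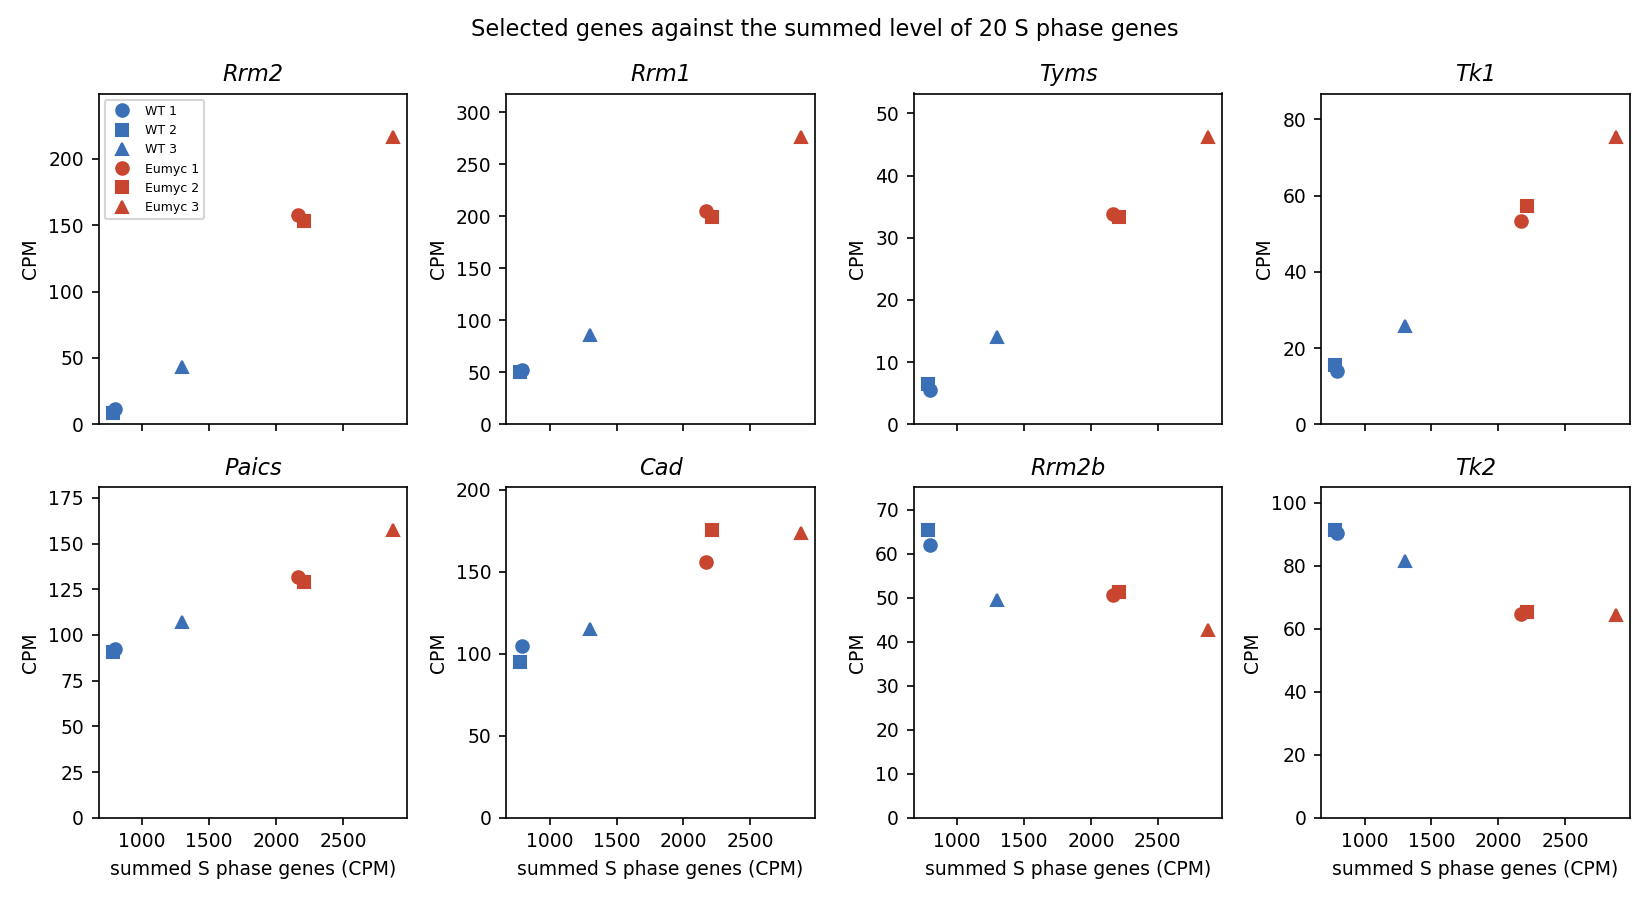
CPM of 8 genes (vertical axes, from 0) against the summed CPM of 20 S phase genes (horizontal axes) in each library, with WT in blue and Eumyc in red. Rrm2, Rrm1, Tyms and Tk1 are highest in Eumyc 3 and, within WT, in WT 3, while Rrm2b and Tk2 are lower in WT 3 than in the other WT libraries.

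Myc itself, whose product is known to drive many genes of nucleotide synthesis, went from 65.9 ± 10.5 to 111 ± 13.5 CPM, a log2 fold change of 0.75 (SE 0.12, edgeR adjusted p = 0.00176). Eumyc lymphoma cells are B lineage cells that carry a Myc transgene, and B cell markers were higher in Eumyc as given above. The part of such cells in the Myc level and in the nucleotide genes was not tested.

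A list of 67 other genes of nucleotide metabolism showed a mixed picture. Of these, 54 were tested, and 25 were higher, 9 were lower and 20 did not pass, with a median log2 fold change of 0.35. Over all 15458 genes tested, 25.7% were called higher and 23.1% lower, and the counts of the shorter lists are to be read beside these shares. Of 12 tested genes of folate one-carbon supply, which provides carbon units for purines and dTMP, 7 were higher and 2 were lower, with a median of 0.68. Mthfd2, a mitochondrial enzyme of this supply, held 5.01, 4.98 and 12.5 CPM in WT against 33.8, 29.8 and 39.7 CPM in Eumyc, a log2 fold change of 2.25 (SE 0.33, edgeR adjusted p = 0.000998). Within WT it was highest in WT 3. Mthfd2l, the relative of Mthfd2, held 4.26, 4.44 and 4.55 CPM in WT against 3.35, 3.19 and 2.41 CPM in Eumyc, a log2 fold change of -0.57 (SE 0.18, edgeR adjusted p = 0.0328). That call was lost without any single library other than Eumyc 1, with edgeR adjusted p up to 0.116.

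Breakdown and sanitation genes, which degrade nucleotides or remove damaged ones, were higher in 11 of 19 tested cases and lower in 2. Gda, guanine deaminase, showed the largest log2 fold change of the tested genes in the nucleotide lists. It held 0.505, 1.00 and 1.68 CPM in WT against 42.6, 19.95 and 27.0 CPM in Eumyc, a log2 fold change of 4.90 (SE 0.41, edgeR adjusted p = 0.000179). Gda was highest in Eumyc 1 rather than in Eumyc 3, unlike Rrm2 and Tyms. Of the other salvage genes 3 of 8 tested were higher and 2 were lower, among them Dguok, the mitochondrial deoxyguanosine kinase. Dguok held 48.4, 55.0 and 48.2 CPM in WT against 37.0, 39.9 and 37.3 CPM in Eumyc, a log2 fold change of -0.41 (SE 0.08, edgeR adjusted p = 0.00326). Like Tk2, it supplies dNTPs to mitochondria and was lower in every Eumyc library than in every WT library. Of the other kinases 2 of 8 tested were higher, and of the transporters 1 of 4 was higher and 1 lower. For the other kinases and the transporters, these counts of higher genes lie near the 25.7% of all tested genes called higher. The 2 of 8 other salvage genes that were lower likewise lie near the 23.1% called lower. Of the remaining 3 genes (Prpsap1, Prpsap2 and Adssl1) 1 was higher and 2 were lower.

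**Figure D5:**
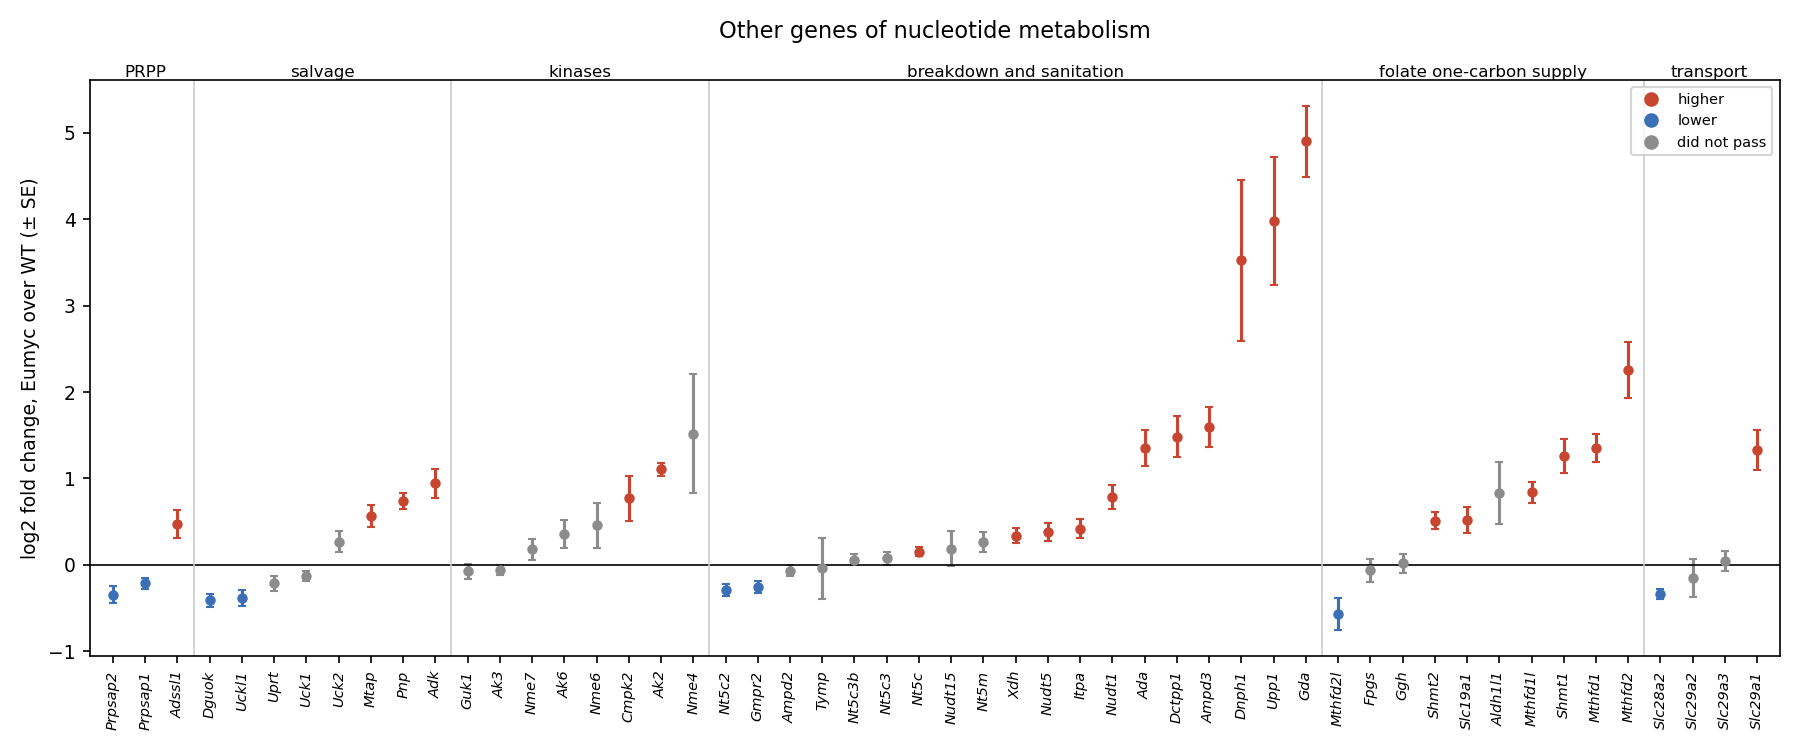
Log2 fold change, Eumyc over WT, of other tested genes of nucleotide metabolism (points, with the standard error as bars), ordered by list, with calls in colour. Of the genes plotted, Gda stands highest at 4.90 and Mthfd2l lowest at -0.57, and Mthfd2 is the highest of the folate genes at 2.25.

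Per kilobase of exon (union of annotated exons), Hprt stood highest of the 32 tested genes in both groups, at 66.9 ± 8.13 CPM per kilobase in WT and 109 ± 8.38 in Eumyc, and Dctd lowest, at 0.921 ± 0.428 and 1.77 ± 0.296. In WT, Samhd1 was next to Hprt at 44.1 ± 1.65 CPM per kilobase, followed by Cmpk1 at 39.1 ± 3.69, and their libraries did not overlap. In Eumyc, Rrm2 was next to Hprt at 63.4 ± 12.8 CPM per kilobase, against 7.56 ± 6.95 in WT, where it ranked 19. The ranks depend on the length chosen for each gene. With the median coding transcript as the length, Samhd1 stood first and Hprt second in both groups, Rrm2 ranked 25 in WT and 3 in Eumyc, and Dctd stayed lowest.

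The authors' deposited table of their own comparison lists 32 of the 33 genes, all but Nme2, and gives each the same sign as edgeR. By its adjusted p-values 26 were higher and 3 were lower. For Rrm2 the authors' deposited table gives a log2 fold change of 1.39, where edgeR gave 3.15, for Tyms it gives 1.57, where edgeR gave 2.17, and for Dut it gives 1.32, where edgeR gave 1.78. The release of DESeq2 that the submitters' processing notes name draws the fold changes of variable or low genes toward 0 by default. No file header says whether this default was kept, so these values may be on a different footing from those of edgeR.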

How the data were processed

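RNA of splenic NK cells was measured in 6 libraries, 3 per group, at 16407611 to 66615602 gene counts each. The authors deposited a table of counts, whole and not normalized, with a row for each of 50686 Ensembl genes. The authors' deposited comparison table supplied its log2 fold changes and adjusted p-values. The submitters' processing notes name STAR 2.5.2, HTSeq 0.6.1, DESeq2 1.10.1 and the builds mm10 and GRCm38, and neither the annotation release nor the strand setting is given in the sources used here.

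The main test was edgeR 4.0.16 (R 4.3.3), with filterByExpr at a minimum count of 10, TMM scaling, the group as the only term and a two-sided quasi-likelihood test. P-values were adjusted by Benjamini-Hochberg over 15458 genes and called under 0.05, and the SE is the absolute log2 fold change divided by the root of F. CPM were TMM-scaled, but sums over marker lists used library totals without TMM. Ratios of related genes were put to an exact permutation test, two-sided, which cannot go below p = 0.1. The scripts were tested on simulated counts. Exon lengths and overlaps came from GENCODE M21 (GRCm38), and promoter windows from RefSeq, with none used for Rrm2b, Dhodh and Pfas.

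The members, steps and lists were chosen with earlier results of these data known. By rule, library values are given for the 2 changed members of each step with the largest absolute log2 fold change, for both genes of a related pair and for members that fell or did not pass. Of the other pathway genes, the rule names the 3 highest and 3 lowest changed ones whose higher group averaged 1 CPM or more, and Myc, Mki67 and Pcna in any case. Some of the genes this rule names are not reported here or plotted, and they remain in the counts and medians of their lists. Alternatives were DESeq2 1.42.0, voom from limma 3.58.1 (also with quality weights), other scalings, no filter, 3 CPM required in 3 libraries, a 1.5-fold threshold, a replicate block, thinning to equal depth and leaving out each library. The second gene length was chosen after seeing the data.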

Additional observations from a re-analysis of the deposited data

How the results depend on the processing

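Of 28 called nucleotide synthesis genes, 23 passed in all 16 alternative settings of the test against no change. Of these 16 settings, Impdh1 passed in only 7, Dtymk in 10, Dctd in 12, and Pfas and Ctps2 in 14 each. Rrm2b, not called in the main test, passed in 7, as often as Impdh1. The Impdh1 and Dtymk calls were also lost with scaling by total counts or upper quartile and with thinning to equal depth. Against a 1.5-fold change, 1828 of all genes passed (1260 higher and 568 lower), 7 nucleotide synthesis genes (7 higher and 0 lower) and 11 other pathway genes (11 higher and 0 lower), since that test asks for a larger difference. When each library was left out in turn, the lower nucleotide synthesis genes numbered 1 (without WT 2 or Eumyc 1) to 3 (without WT 3). The lower other pathway genes numbered 5 (without WT 2 or Eumyc 3) to 8. Over all tested genes, lower calls also fell, from 3576 in the main test to 2638 without WT 2. They were 2824 without Eumyc 1, 2616 without Eumyc 3 and 3623 without WT 3. With single libraries left out, the median log2 fold change of the dNTP genes ran from 1.17 to 1.78 (without WT 3). The Nme1/Nme2 log2 ratio difference ran from -0.10 (without WT 2) to 0.93, and the log2 fold changes of Prps2 and Samhd1 from -0.052 to 0.027 (without WT 2) and from -0.058 (without Eumyc 1) to 0.20. The cause of these shifts was not tested. With the replicate number as a block, 26 nucleotide synthesis genes were higher and 3 lower, which adds Rrm2b (-0.29, edgeR adjusted p = 0.00674), against 26 and 2. Over all genes it gave 7860 calls. Same-numbered libraries correlated in their deviations at 0.0404, 0.0985 and 0.126, not all above 0.1, each library correlated best with its own number, and no label says that the numbers pair them. Nme2 held 2 to 15 counts per library, and the part of depth or of reads shared with Gm20390 in this low level was not tested.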
